A study of Homo sapiens with 12 samples.

Results

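The genes described here are 9 genes of antigen presentation by MHC class I, found by gene name in both deposited tables among 59490 names that occur once. They are B2M, HLA-B, HLA-C, HLA-E, HLA-F, TAP1, TAP2, TAPBP and NLRC5. OCI-LY1 is a human cell line from a diffuse large B-cell lymphoma, and polyadenylated RNA of 12 libraries was sequenced, 3 in each of 4 groups. The groups were parental cells given 1 µM decitabine for 3 days, parental cells given vehicle (DMSO) for the same time, and the venetoclax-resistant line OCI-LY1R given decitabine or vehicle in the same way. OCI-LY1R is a single line selected from OCI-LY1 with venetoclax, a BCL2 inhibitor, raised to 1 µM. The labels do not say whether it is 1 clone. Decitabine is a cytidine analogue that depletes DNA methyltransferases. Values are TPM (length-scaled transcript abundance summing to 1000000 in each library). The depth behind them is unknown, and counting intervals are therefore not given. Nothing in the labels says that replicates came from separate cultures, so p-values measure only the spread between these libraries, which may be technical.

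A class I molecule is a heavy chain, encoded by the HLA genes, bound to the light chain β2-microglobulin (B2M) and to a short peptide. Peptides cut by the proteasome are pumped into the endoplasmic reticulum by the TAP1 and TAP2 transporter, and tapasin (TAPBP), with calreticulin (CALR) and PDIA3, holds an empty class I molecule beside that transporter until a peptide is bound. NLRC5 is the transactivator that, with RFX factors on the promoters of these genes, drives class I transcription. B-cell lymphomas are known to lose class I through lesions of B2M and other genes, and methylation of the NLRC5 promoter has been described in tumours.

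Parental decitabine replicate 3 stood apart from the other 11 libraries and is given separately throughout. ACTB, a housekeeping gene, was at 6353 TPM there and at 8.14 to 20.4 TPM in the others, and RPLP0, a ribosomal protein gene, was at 2956 TPM there against 0.34 to 5.85 TPM. Log2 values correlated with those of the other decitabine replicates of parental cells at 0.326 and 0.328, while replicates within the other groups correlated at 0.915 to 0.930. The B-cell markers went the same way: the sum of 8 was 5157 TPM in replicate 3, with CD79A at 1491 and MS4A1 at 204 TPM, and 84.9 to 252 TPM in the other 11, where MS4A1 was at 0 to 3.15 TPM. Defining markers of T cells, myeloid cells and fibroblasts summed to at most 2.48 TPM in any library. Epithelial markers summed to 34.9 TPM in replicate 3, of which EPCAM made 33.4 TPM.

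In the 11 libraries most values of the class I genes were listed at 0, as were most values of the whole table. Of their 99 values 76 (76.8%) were exactly 0, against 68.4% of the values of 19473 protein-coding features and 81.5% of the values of all features. HLA-B, HLA-C, TAP1, TAP2 and NLRC5 were at 0 in all 11, as were 39.5% of the coding features. B2M was the only member above 0 in all 11, and none of the 9 averaged 5 TPM or more there. An exact 0 is read as a value listed at 0 and not as absence of the RNA, because ACTB, which every cell uses, was also far below its level in replicate 3. The matrix of values by library shows the empty rows and the narrow band of B2M.

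**Figure D1:**
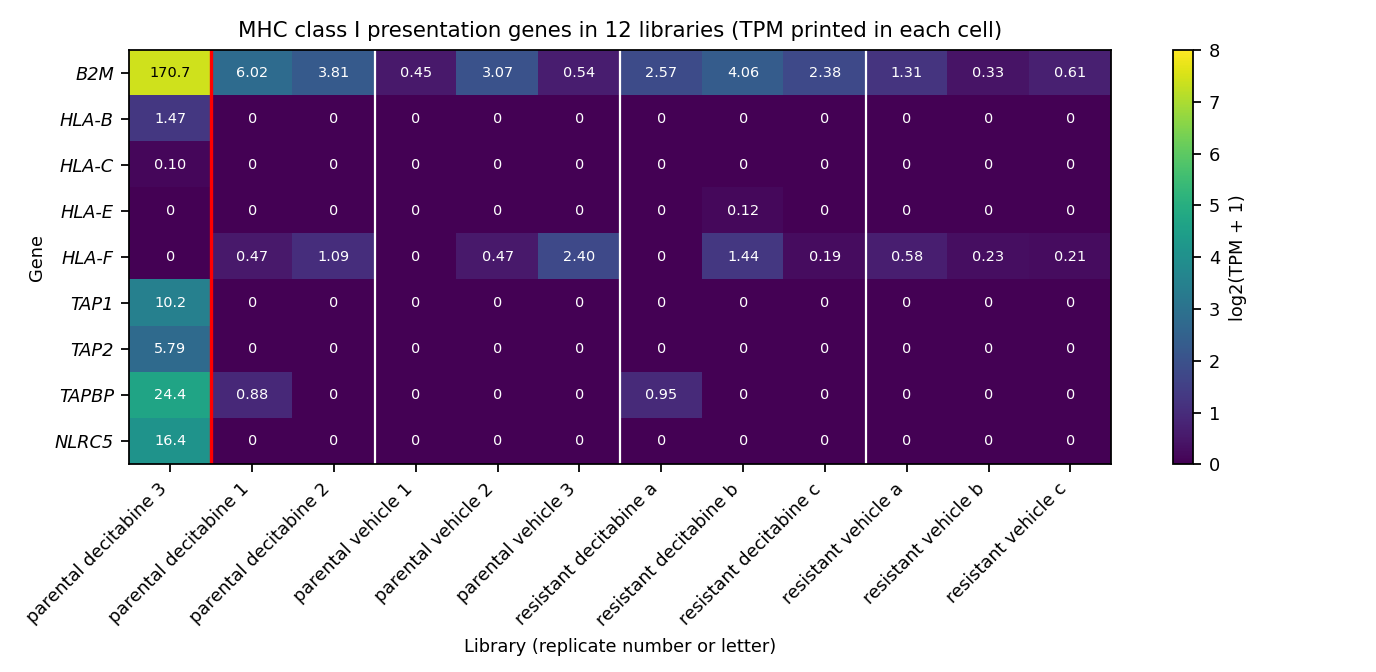
TPM of the 9 class I presentation genes (rows) in 12 libraries (columns), coloured by log2(TPM + 1) with the TPM printed in each cell; parental decitabine replicate 3 stands left of the red line. B2M is above 0 in every column, HLA-B, HLA-C, TAP1, TAP2 and NLRC5 are above 0 only in replicate 3, and HLA-E and HLA-F are at 0 there.

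B2M, the light chain shared by all class I molecules (chromosome 15, 44711487 to 44718877, plus strand, GRCh38), was at 6.02 and 3.81 TPM in parental decitabine replicates 1 and 2, against 0.45, 3.07 and 0.54 TPM in the parental vehicle libraries. In resistant cells it was at 2.57, 4.06 and 2.38 TPM under decitabine, against 1.31, 0.33 and 0.61 TPM under vehicle. In both lines every decitabine value lay above every vehicle value, although parental vehicle replicate 2 came close to parental decitabine replicate 2. No feature is annotated on the strand opposite B2M. The strand that was counted is not given in the sources, so the values of B2M and the other genes in the 11 libraries may hold signal from the strand opposite the gene. ACTB at 8.14 to 20.4 TPM against 6353 TPM in replicate 3, and PSMB8-AS1, antisense to TAP1, at 17.9 to 31.4 TPM against 0.82 TPM, bear on this, and it was not tested for B2M.

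Within a line the B2M difference did not pass the test. In parental cells B2M averaged 4.92 ± 1.56 TPM with decitabine (SD, n = 2) and 1.35 ± 1.49 TPM with vehicle (SD, n = 3), a log2 fold change of 1.48 (95% interval -0.10 to 3.05, limma adjusted p = 0.298). B2M was the only 1 of the 9 genes with a mean of at least 1 TPM and so the only one tested, and 0 were called, with 0 at an unadjusted p under 0.05. Over all 8122 features tested 1.86% were called, and 27.9% had decitabine values above every vehicle value, so the separation of B2M is not unusual. In resistant cells it averaged 3.00 ± 0.92 TPM with decitabine and 0.75 ± 0.50 TPM with vehicle (SD, n = 3 each), a log2 fold change of 1.21 (95% interval 0.27 to 2.14, limma adjusted p = 0.158, unadjusted p = 0.0198). With quantile scaling it was 0.52 (95% interval -0.40 to 1.44, limma adjusted p = 0.498). The vehicle mean is under the 1 TPM minimum, so B2M was tested there through its decitabine values. Again 0 members were called, with 1, B2M, at an unadjusted p under 0.05, against 3.59% of 8579 features called, and 19.8% of them had decitabine values above every vehicle value. Fold changes are on the log2(TPM + 1) scale, which understates changes at such low values.

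Averaged over both lines, B2M rose with decitabine. The mean response in a model of the 4 group means was 1.34 on the log2 scale (SE 0.34, 95% interval 0.57 to 2.11, limma adjusted p = 0.0361). Each of the 5 decitabine libraries exceeded all vehicle libraries of its own line. Of the 8505 features in this fit 8.99% were called as rises and 2.81% as falls, 9.45% were separated upwards in both lines, and the log2 fold changes of the whole table had a median of 0.21. The call did not survive most other settings. It was lost with quantile scaling (log2 fold change 0.83, adjusted p = 0.163), with median-ratio scaling (1.24, adjusted p = 0.0517), with no filter on low values (1.34, adjusted p = 0.0818) and with parental decitabine replicate 3 included (2.16, adjusted p = 0.436). It was also lost without parental vehicle 1 or 3, parental decitabine 1 or 2, resistant vehicle b or c, or resistant decitabine a, b or c (adjusted p 0.0577 to 0.121), and it held without parental vehicle 2 (adjusted p = 0.0139) or resistant vehicle a (adjusted p = 0.0398). Decitabine libraries also had more features above 0 than vehicle libraries, at 11720 and 11230 against 10228 to 10426 in parental cells and at 12590 to 13130 against 9695 to 9927 in resistant cells. The sum of 4 epithelial markers was 1.77 to 22.4 TPM with decitabine in resistant cells, against 0 to 2.98 TPM with vehicle. In parental cells it was 0.53 to 0.68 TPM against 0 to 0.56 TPM, and the ranges overlapped in both lines. The highest sum came from KRT8 in 1 library, at 22.4 TPM. The part of the feature numbers or of the epithelial sums in the B2M value was not tested beyond the scalings. In bulk RNA, fewer cells with a transcript and less of it per cell cannot be told apart.

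**Figure D2:**
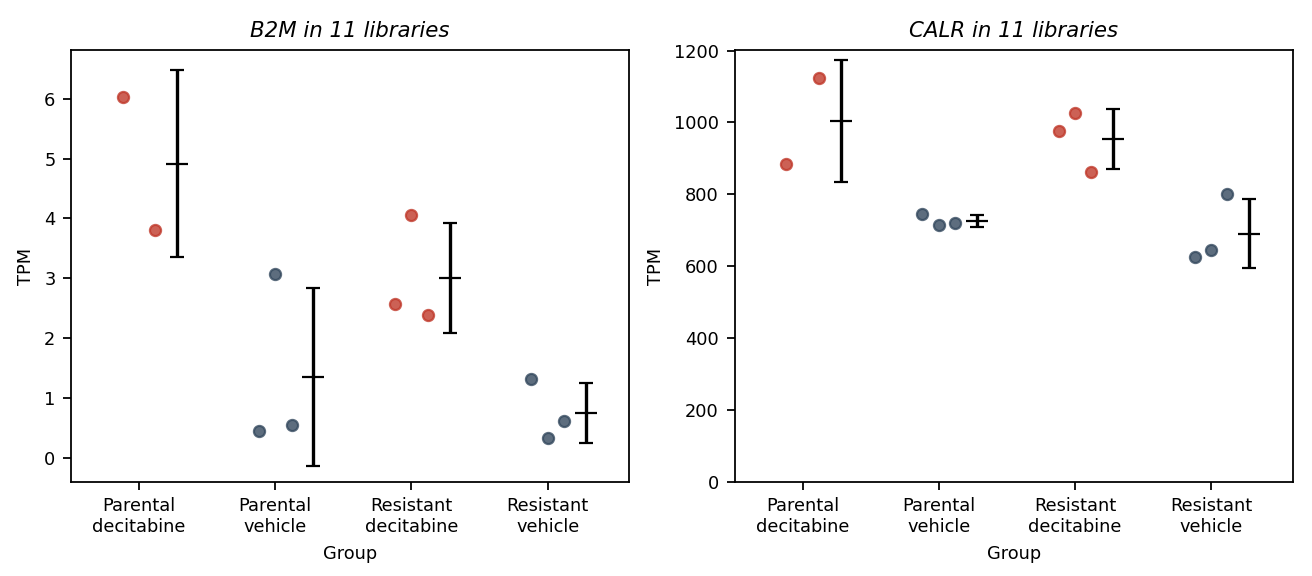
TPM of B2M (left) and CALR (right) in the 11 libraries other than parental decitabine replicate 3; points are libraries, red with decitabine and grey with vehicle, and bars are the mean ± SD (n = 2 in parental decitabine, otherwise n = 3). The B2M values with decitabine, 2.38 to 6.02 TPM, lie above the vehicle values of the same line, as do those of CALR, 862 to 1123 TPM.

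The responses of the lines were not distinguishable for B2M. The decitabine response in resistant cells minus that in parental cells was -0.27 (95% interval -1.81 to 1.26, limma adjusted p = 0.927), an interval wide enough to hold a more than 2-fold difference in either direction. Only 0.364% of 8505 features were called in this comparison, and 0 members, with 0 at an unadjusted p under 0.05. Resistant cells did not differ detectably from parental cells under vehicle either, with B2M at 1.31, 0.33 and 0.61 TPM in resistant and 0.45, 3.07 and 0.54 TPM in parental cells (log2 fold change -0.29, 95% interval -1.63 to 1.05, limma adjusted p = 0.807). Here 0 members were called, with 0 at an unadjusted p under 0.05, against 2.8% of 7761 features. Parental vehicle replicate 2 sets the parental spread, and without it the mean of B2M falls under 1 TPM and no test is left. The lines were deposited in separate tables, each library being scaled by itself to the same total. Under decitabine the values were 2.57, 4.06 and 2.38 TPM in resistant and 6.02 and 3.81 TPM in parental cells, and these overlap. These comparisons share libraries with the responses above and are not independent of them.

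**Figure D3:**
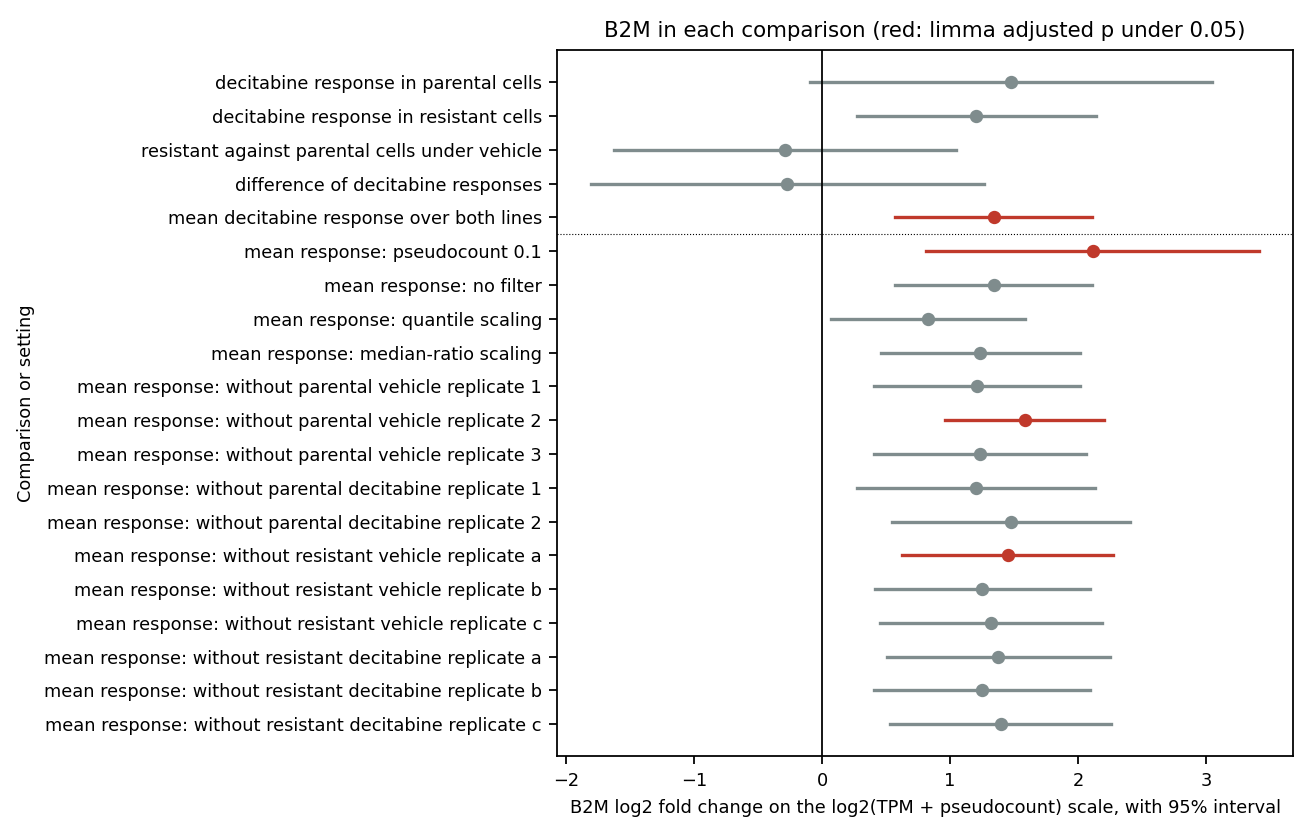
Log2 fold change of B2M with its 95% interval for the 5 comparisons (above the dotted line) and for the mean response over both lines under each other setting that kept B2M and left replicate 3 out (below it); red marks an adjusted p under 0.05. All intervals of the mean response lie above 0, while 3 of its 15 other settings shown are red.

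The proximal promoters of B2M, HLA-B and TAP2 are shown as 1 example each of the light chain, the heavy chains and the transporter, with the elements through which class I genes are known to be induced. The sequences are from RefSeq (GRCh38.p14), read 5′ to 3′ on the gene's strand and end just before the first annotated start in GENCODE 29. Capitals mark matches on either strand to an interferon-regulatory-factor element, searched as a pair of GAAA runs with any 2 bases between them, and to the Y-box core ATTGG, which reads CCAAT on the other strand. B2M spans chr15:44711267-44711486 (plus strand), HLA-B chr6:31357189-31357429 (minus strand) and TAP2 chr6:32838781-32838989 (minus strand).
B2M: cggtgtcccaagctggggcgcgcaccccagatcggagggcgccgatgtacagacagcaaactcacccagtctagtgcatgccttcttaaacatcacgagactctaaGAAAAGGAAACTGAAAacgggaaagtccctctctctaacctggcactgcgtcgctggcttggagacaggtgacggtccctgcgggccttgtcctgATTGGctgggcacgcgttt
HLA-B: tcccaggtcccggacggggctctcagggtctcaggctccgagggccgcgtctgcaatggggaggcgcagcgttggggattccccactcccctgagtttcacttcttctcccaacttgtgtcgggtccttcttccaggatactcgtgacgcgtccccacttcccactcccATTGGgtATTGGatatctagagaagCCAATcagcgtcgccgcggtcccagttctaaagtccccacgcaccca
TAP2: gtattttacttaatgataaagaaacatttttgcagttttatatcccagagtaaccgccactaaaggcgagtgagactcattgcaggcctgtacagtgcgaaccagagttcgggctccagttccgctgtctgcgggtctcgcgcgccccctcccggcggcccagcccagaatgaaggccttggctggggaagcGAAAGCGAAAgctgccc
The B2M stretch held 2 overlapping matches to the interferon element, which merge into 1 run of capitals, and 1 Y-box core. The HLA-B stretch held 3 Y-box cores and no interferon element by these letters, and the TAP2 stretch 1 interferon element and no Y-box core. RefSeq windows of 250 bases before and 50 bases after the start were found for 7 of the 9 genes, all but HLA-E and NLRC5. The interferon element was in 5 of the 7 windows (B2M, HLA-F, TAP1, TAP2 and TAPBP) and in 3.57% of 35116 windows of all genes. The Y-box core was in 5 of the 7 (B2M, HLA-B, HLA-C, HLA-F and TAP1) and in 34.6% of all windows. The 7 windows held 12 to 24 CpG dinucleotides, 22 in B2M, 22 in HLA-B and 24 in TAP2, against a median of 14 over all windows. A match describes letters in a window and not a bound site.

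Among the heavy chains, which present the peptide, HLA-F gave the broadest signal and HLA-B and HLA-C none in the 11 libraries. HLA-F (chromosome 6, 29722775 to 29738528, plus strand), a non-classical heavy chain, was at 0.47 and 1.09 TPM in parental cells with decitabine and at 0, 0.47 and 2.40 TPM with vehicle. In resistant cells it was at 0, 1.44 and 0.19 TPM with decitabine and at 0.58, 0.23 and 0.21 TPM with vehicle. The groups overlapped in both lines, and with no filter on low values the mean response was 0.07 (SE 0.39, limma adjusted p = 0.927). HLA-E (chromosome 6, 30489467 to 30494205, plus strand), the ligand of the NKG2A receptor, was at 0.12 TPM in resistant decitabine b and at 0 in the other 11 libraries, replicate 3 included. HLA-B (chromosome 6, 31269491 to 31357188, minus strand) and HLA-C (31268749 to 31272130, minus strand), classical heavy chains, were at 0 in all 11, with 1.47 and 0.10 TPM in replicate 3. The heavy-chain genes are close copies of each other, and the annotated bodies of HLA-B and HLA-C partly overlap, so the split of reads is uncertain. HLA-F has 28.5% of its exon length opposite other features and HLA-B 17.8%. HLA-F-AS1, which runs opposite HLA-F, was at 0.34 TPM in parental decitabine 1, at 0.96 TPM in replicate 3 and at 0 in the others.

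The transporter genes had no value above 0 outside replicate 3, where TAP1 was at 10.2 and TAP2 at 5.79 TPM. TAP1 (chromosome 6, 32845209 to 32853978, minus strand) has 9.49% of its exon length opposite other genes, and TAP2 (32821833 to 32838780, minus strand) none. PSMB8-AS1 (32844086 to 32846495, plus strand), a non-coding RNA whose body overlaps the 3′ end of TAP1 by 1287 bases, was present in every library. It was at 31.4 and 30.0 TPM in parental cells with decitabine, against 18.2, 20.6 and 21.9 TPM with vehicle. These did not overlap, but 27.9% of 8122 features were separated upwards in the same way, so this is not unusual. In resistant cells it was at 20.9, 25.4 and 19.4 TPM with decitabine and at 28.8, 17.9 and 25.8 TPM with vehicle, which overlapped. Neither response passed the test (log2 fold change 0.58, limma adjusted p = 0.172 in parental and -0.12, adjusted p = 0.813 in resistant cells), and nor did their difference (-0.70, adjusted p = 0.489, unadjusted p = 0.0464). In replicate 3 PSMB8-AS1 was at 0.82 TPM, so it and TAP1 stood in opposite order there and in the other libraries. PSMB9, a protein-coding gene on the plus strand, also lies opposite TAP1 and overlaps it by 8770 bases. Like TAP1 it was at 0 outside replicate 3, where it was at 11.6 TPM.

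TAPBP, the gene of tapasin (chromosome 6, 33299694 to 33314387, minus strand), was at 0.88 TPM in parental decitabine 1 and at 0.95 TPM in resistant decitabine a. It was at 0 in the other decitabine libraries of the 11 and in all vehicle libraries of both lines. With no filter its mean response was 0.39 (SE 0.22, limma adjusted p = 0.50), so the values do not show a change. In replicate 3 it was at 24.4 TPM. NLRC5, the transactivator (chromosome 16, 56989485 to 57083531, plus strand), was at 0 in all 11 libraries and at 16.4 TPM in replicate 3. An antisense RNA annotated inside its body, outside its exons, ranged over 0.56 to 2.75 TPM in the 11 and was listed at 0 in replicate 3. No response of NLRC5 can be read from the 11 libraries. With no filter 4 members could be tested in the mean response, B2M, HLA-E, HLA-F and TAPBP; 0 were called by limma, with 1, B2M, at an unadjusted p under 0.05.

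In replicate 3 the class I genes had levels spread over the whole range of coding genes. B2M at 170.7 TPM lay above 97.1% of 19473 protein-coding features, TAPBP above 78.0%, NLRC5 above 71.6%, TAP1 above 64.6%, TAP2 above 57.4% and HLA-B above 46.5%. HLA-C lay lower, and HLA-E and HLA-F were at 0. The light chain was listed far above these heavy chains in the same library, B2M at 170.7 TPM against 1.47 TPM for HLA-B and 0.10 TPM for HLA-C. Of the 6 members at 1 TPM or more in replicate 3, 4 were at 0 in all 11 others (HLA-B, TAP1, TAP2 and NLRC5), as were 19.3% of the 10825 coding features at that level. There is 1 such library and no vehicle library like it, so no response can be tested in it. With replicate 3 counted in the parental decitabine group, 4 members passed the filter, B2M as before and TAP1, TAPBP and NLRC5 through that library alone, and B2M had a log2 fold change of 3.11 (limma adjusted p = 0.594).

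**Figure D4:**
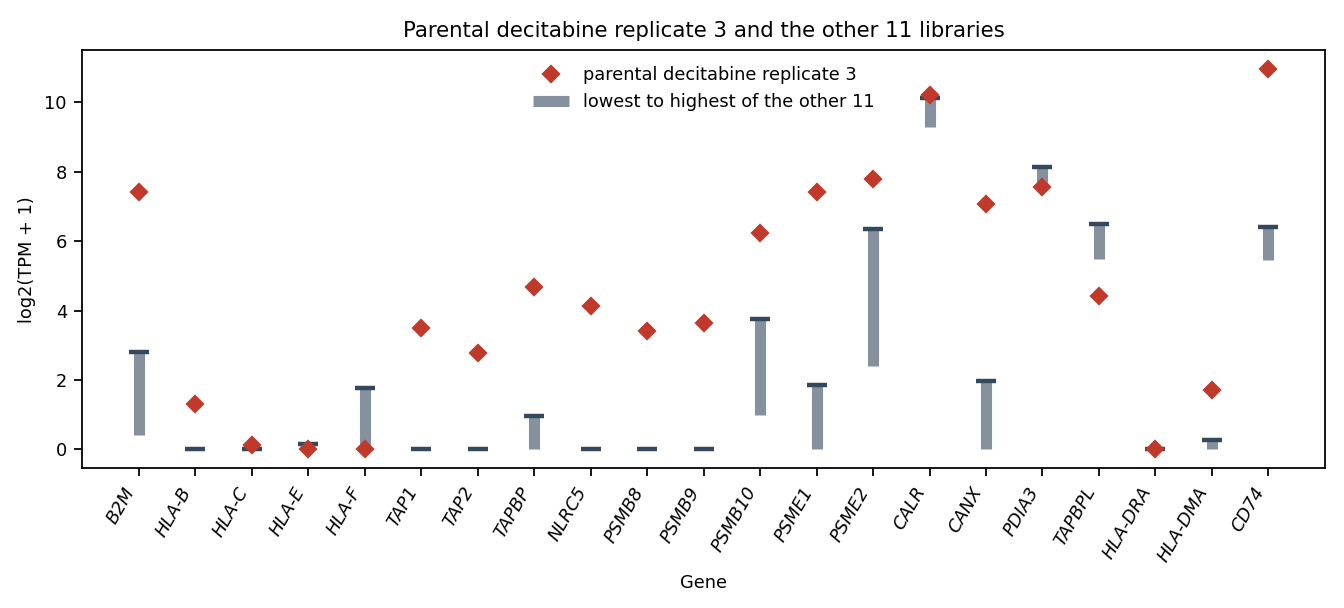
Log2(TPM + 1) of class I genes, of genes of peptide supply and loading, and of class II genes in parental decitabine replicate 3 (red diamonds) and the lowest to highest value of the other 11 libraries (grey bars). B2M and CD74 lie far above the other libraries at 170.7 and 1986 TPM, CALR lies near them, and TAPBPL and PDIA3 lie below them.

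The rest of the pathway was read from a list of 42 genes. Of these 18 were at 0 in all 11 libraries, among them the immunoproteasome genes PSMB8 and PSMB9 and the class I or class I-like genes HLA-G, MR1 and CD1D. Over both lines 14 of the 42 were tested, and 1 rose and 0 fell, against 8.99% and 2.81% of all features. At an unadjusted p under 0.05 (limma) there were 2 of the 14, against 27.1% of all features, so neither count is above the share of the whole table. The list had a median log2 fold change of 0.06, beside 0.21 over the whole table. The one that rose was CALR, the chaperone calreticulin of the peptide-loading complex. It was at 883 and 1123 TPM in parental cells with decitabine, against 745, 714 and 719 TPM with vehicle. In resistant cells it was at 977, 1026 and 862 TPM with decitabine, against 627, 646 and 800 TPM with vehicle. The groups did not overlap in either line, and 9.45% of 8505 features were separated upwards in both lines in the same way. The mean response of CALR was 0.46 (SE 0.10, limma adjusted p = 0.0167). It lost its call with median-ratio scaling (0.31, adjusted p = 0.0773), without parental decitabine 2 (0.38, adjusted p = 0.0665) and with replicate 3 included (0.50, adjusted p = 0.583), the adjusted p ranging from 0.00835 to 0.583 over its alternatives. CALR was at 1180 TPM in replicate 3, and 9.95% of its exon length lies opposite another gene. PDIA3, the disulfide isomerase of the same complex, was at 246 and 239 TPM with decitabine and 280, 266 and 278 TPM with vehicle in parental cells. In resistant cells it was at 199, 207 and 228 TPM with decitabine and 282, 257 and 246 TPM with vehicle. PDIA3 was thus lower in both lines, and the share of all features that were so was not computed. Its mean response of -0.24 missed the threshold (limma adjusted p = 0.0562). Within parental cells 0 of 15 tested genes of the list were called and within resistant cells 0 of 15, against 1.86% and 3.59% of all features. At an unadjusted p under 0.05 (limma) there were 3 and 2, against 18.0% and 19.8% of all features. For resistant against parental cells under vehicle 0 of 13 were called (3 at an unadjusted p under 0.05, against 19.3% of all features), and for the difference of responses 0 of 14 (1 at an unadjusted p under 0.05, against 10.1%).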

How the data were processed

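A stranded DNBSEQ mRNA library was made from each sample, per the labels' protocols. HISAT2, StringTie and DESeq2 with build hg38 are named in the submitters' processing notes; the sources used here do not give their versions, order, annotation or strand setting. Values deposited by the authors, 1 table per line, were taken to be TPM because every column sums to 1000000. Gene names were used, because the identifiers beside them in the parental table fit the name for only 5 of the 9 members. Which members these are was not listed. Positions, strands and opposite features were attached by name alone. The 1166 features with repeated names were left out. Parental columns were matched to samples by title, and resistant columns only to groups, since their names match no single title, so they are lettered in the order of their column numbers. The design was written for TPM or counts, and the branch for TPM was used.

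Each comparison was fitted with limma 3.58.1 (trend, R 4.3.3) after adding 1 TPM and taking log2. Features averaging under 1 TPM across the libraries of a fit were dropped, p-values were two-sided and Benjamini-Hochberg adjusted over the rest, and the threshold was 0.05. Parental decitabine replicate 3 was left out of the fits and given apart. The test was run on simulated data with known changes, and the outcome is not given here. Noise was normal and independent between features on the log2 scale. The changes were placed only in features above the median level, so the check does not cover levels as low as that of B2M. Alternatives were a pseudocount of 0.1, no filter, a minimum mean of 5 TPM, quantile and median-ratio scaling, leaving out each library, including replicate 3, and the replicate number as a block. Positions and strands are those of GENCODE 29 (GRCh38). The text names all 9 members, members of the 42-gene list past the threshold and features opposite a member; PDIA3 and the genes named from replicate 3 were chosen after their values were seen. Genes of like pattern were to be sought for members averaging 5 TPM or more over the 11 libraries, and there were 0. A gene of the 42-gene list is not reported here. Members and lists were chosen with earlier results of these data known.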

Additional observations from a re-analysis of the deposited data

Results flagged for a closer look

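In parental decitabine replicate 3, which the fits do not use, 7 of the 9 members were above every parental vehicle library. The share of all features that were so was not computed. Above 0 in replicate 3 were 14068 of 19473 protein-coding features, so the count is not read as a trait of the members. B2M was at 170.7 TPM against 0.45 to 3.07 TPM, TAPBP at 24.4 TPM, NLRC5 at 16.4 TPM, TAP1 at 10.2 TPM, TAP2 at 5.79 TPM, HLA-B at 1.47 TPM and HLA-C at 0.10 TPM, the last 6 against 0 in all 3 vehicle libraries. ACTB and RPLP0 were higher in this library in the same way, at 6353 and 2956 TPM, and there is no vehicle library like it. The part of decitabine in these values cannot be told apart from that of the library. No member met the condition for a difference between the lines.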

How the results depend on the processing

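With no filter on low values the calls numbered 35 in parental cells (151 with the filter), 73 in resistant cells (308), 68 between the lines under vehicle (217), 7 for the difference of responses (31) and 657 for the mean response (1004), where the share of rises was 76.2% as deposited, 49.2% with quantile and 55.6% with median-ratio scaling. In resistant cells 194 were called at a mean of at least 5 TPM and 196 with quantile scaling. With replicate 3 included, 0, 1 and 38 were called in parental cells, for the difference and for the mean response. Leaving out 1 library at a time gave 14 to 264 calls in parental and 90 to 197 in resistant cells, 58 to 191 under vehicle, 12 to 47 for the difference and 539 to 925 for the mean response. The counts moved by over 1.5 times without any 1 parental library in parental cells (14, 23 and 47 without vehicle 1, 2 or 3; 231 and 264 without decitabine 1 or 2) and without any 1 resistant library in resistant cells (197, 137 and 100 without vehicle a, b or c; 104, 113 and 90 without decitabine a, b or c). Under vehicle they were 63, 58 and 67 without parental 1, 2 or 3 and 125 and 67 without resistant b or c. For the difference they were 17, 13 and 12 without parental vehicle 1, 2 or 3, 47, 19 and 14 without resistant vehicle a, b or c and 14 without resistant decitabine c. For the mean response they were 600 and 539 without parental decitabine 1 or 2. The share of rises was 74.2% in parental cells (61.5% and 54.4% with quantile and median-ratio scaling), 78.9% in resistant cells (66.8% and 64%) and 61.8% under vehicle (46.7% and 46.4%).

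The B2M mean response was 1.34 with no filter, 0.83 and 1.24 with quantile and median-ratio scaling, 2.16 with replicate 3 and 1.20 to 1.58 without 1 library, positive throughout, and it kept its call in 3 of 16 alternatives. Without 1 library B2M was 1.20 to 1.96 in parental cells, 1.02 to 1.42 in resistant cells, -0.55 to -0.11 under vehicle and -0.75 to 0.00123 for the difference, which turned sign without parental decitabine 1. The cause was not tested. With a pseudocount of 0.1 B2M was at 2.24 in parental cells, 1.99 in resistant cells, -0.45 under vehicle and 2.11 for the mean response. Quantile scaling gave 0.52 in resistant cells, -0.11 under vehicle and -0.61 for the difference, and including replicate 3 gave 3.11 in parental cells and -1.90 for the difference. At a mean of at least 5 TPM no member is left. In parental libraries with replicate 3 included, equal replicate numbers gave correlations of deviations of -0.00346, 0.0164 and 0.0223. Replicate 3 stands apart and shifts those deviations. Without it the deviations of the 2 decitabine libraries are exact opposites (-0.00891 and 0.00891 with vehicle 1), so pairing could not be judged there. By column number, equal numbers showed no pairing in resistant libraries (-0.00601, 0.0311 and 0.0357), where not every library correlated best with its own number. With the replicate block 0 features were called in parental cells in place of 151 and B2M was at 1.26 (adjusted p = 0.549), and 2 were called in resistant cells in place of 308 and B2M was at 1.21 (adjusted p = 0.296).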

Other observations

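The members on chromosome 6 share a position in the MHC, taken here as GABBR1 to KIFC1 (29555629 to 33409924, GRCh38), with 153 protein-coding features. In parental decitabine replicate 3, 11 of the 19 HLA-named features of that stretch (57.9%) were at 0, against 44 of 134 others there (32.8%) and 27.7% of the coding features outside it. The highest value in the stretch was that of RPS18, a ribosomal protein gene, at 380 TPM. In the other 11 libraries 84.2% of the HLA-named features, 57.5% of the other features of the stretch and 39.3% of those outside it were at 0 in all 11.

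HLA-DRA, HLA-DRB1, HLA-DPA1, HLA-DQA1 and HLA-DQB1 were at 0 in all 12 libraries, while CD74, the invariant chain that binds class II molecules and lies on another chromosome, reached 1986 TPM in replicate 3, against a range of 42.5 to 83.9 TPM elsewhere. B2M, which lies on chromosome 15, was at 170.7 TPM in replicate 3, against at most 1.47 TPM for HLA-B, HLA-C, HLA-E and HLA-F. No explanation of this gap was tested. The identifier beside the name fitted it for only 5 of the 9 members, and which ones was not listed.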
